A study of Gallus gallus with 6 samples.

Results

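Peroxisome genes are described here in ileum, the stretch of small intestine before the caeca, from Taiping chickens 2 months old. Members were the rows that the deposited table assigns to the KEGG pathway Peroxisome and to none of the pathways for terpenoid backbone synthesis, xenobiotic metabolism by cytochrome P450 and drug metabolism by cytochrome P450, with at least 10 counts in at least 3 of the 6 libraries. They were 71 of 17623 rows. Of 78 rows with the pathway label, 3 carried another of these labels (MVK, PMVK and GSTK1) and 4 were under the count minimum. Just outside it, ACSL6 had 3 to 19 counts per library. HAO1 had 1 to 6, AGXT 0 to 3 and PEX5L 0 to 3 counts. Just inside it, HAO2 had 5 to 16 counts per library, HMGCLL1 9 to 25 and DDO 17 to 30.

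All birds ate a basal diet based on corn and soybean. Water of the treated birds held 1 mL of fructooligosaccharide, a fructose polymer fermented by gut bacteria, per litre. The abbreviation FOS means that supplement, or the birds given it, and not the FOS gene. Each group had 3 libraries. Since no label ties them to separate birds, the p-values reflect differences among libraries that may be technical. Total counts ranged from 14668289 to 18106651 per library, so that 1 CPM (a count scaled to library size) stood for 14.7 to 18.1 counts before scaling.

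Peroxisomes are small organelles bounded by a single membrane. Proteins called peroxins, the products of PEX genes, insert their membrane proteins and import folded enzymes from the cytosol. Inside, oxidases shorten very long, branched and dicarboxylic fatty acids and bile acid precursors and give off hydrogen peroxide, which catalase breaks down. In intestinal epithelium they lie mainly in absorptive enterocytes, the cells that take up dietary lipid.

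All birds are labelled male, a sex that has no W chromosome. The W-linked gene HINTW stood at 111 to 158 CPM in control 1, control 3, FOS 1 and FOS 3, but control 2 held 0.173 CPM and FOS 2 held 0.0697 CPM. The libraries numbered 2 therefore stood apart from the other 4 and, for those 4, the values go against the label. Restricted to the 4 libraries that hold W-linked transcripts, the log2 fold changes of 7 of the 71 members turned sign and those of another 33 moved by over 1.5 times, and such values are given below for some of these members only. In bulk tissue, fewer cells of a type and less RNA per cell cannot be told apart.

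The peroxisome label was compared with another annotation in the same table, which describes the labels and tests nothing about expression. Of the 71 members, 54 (76.1%) carried a GO cellular component term that names the peroxisome, against 0.572% of the 13823 rows of the whole table that passed the same count minimum. A mitochondrial term was carried by 18 members, 11 of them beside the peroxisomal one, so the pathway also holds genes whose products work in other compartments, such as SOD2 and IDH2. By role, 17 members belonged to biogenesis, 7 to membrane proteins and transporters, 26 to oxidation of fatty acids and their activation, 6 to antioxidant defence, 3 to ether lipid synthesis and 10 to amino acid, purine and other metabolism. ECH1 and HMGCLL1 were on no role list. Liver is rich in peroxisomes. Of 7 hepatocyte markers found, 4 stayed under 1 CPM in every library, among them AHSG with 0 counts in all, and the summed level of the list was 77.5 to 94.8 CPM in control against 47.6 to 77.2 CPM with FOS, most of it TF. All 8 exocrine pancreas markers stayed under 1 CPM in every library, with CEL at 0 counts.

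Transcript levels of the members differed widely in control ileum. FPKM, a read count scaled to transcript length and depth, is used wherever levels of different genes are compared. The mean control FPKM ran from 0.407 for HAO2, a hydroxyacid oxidase, to 551 ± 105 (SD, n = 3) for PRDX1, a peroxiredoxin that reduces hydrogen peroxide in cytosol and peroxisomes. The median over the 71 members was 26.8 FPKM, beside 11.4 FPKM over all genes tested. Below PRDX1 stood IDH1, which makes NADPH in cytosol and peroxisomes, at 283 ± 62 FPKM, and SOD1, the copper-zinc superoxide dismutase, at 221 ± 22.4 FPKM (SD, n = 3). SCP2, a thiolase and lipid carrier, stood at 165 ± 5.42 FPKM (SD, n = 3). IDH2, the mitochondrial partner of IDH1, stood at 121 ± 8.71 FPKM. CAT, catalase, stood at 111 ± 28 FPKM and EHHADH, the bifunctional hydratase and dehydrogenase, at 109 ± 14.7 FPKM (SD, n = 3). The ranges of mean ± SD overlapped between IDH1 and SOD1, and among IDH2, CAT and EHHADH, so these genes did not differ beyond their spread.

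**Figure D1:**
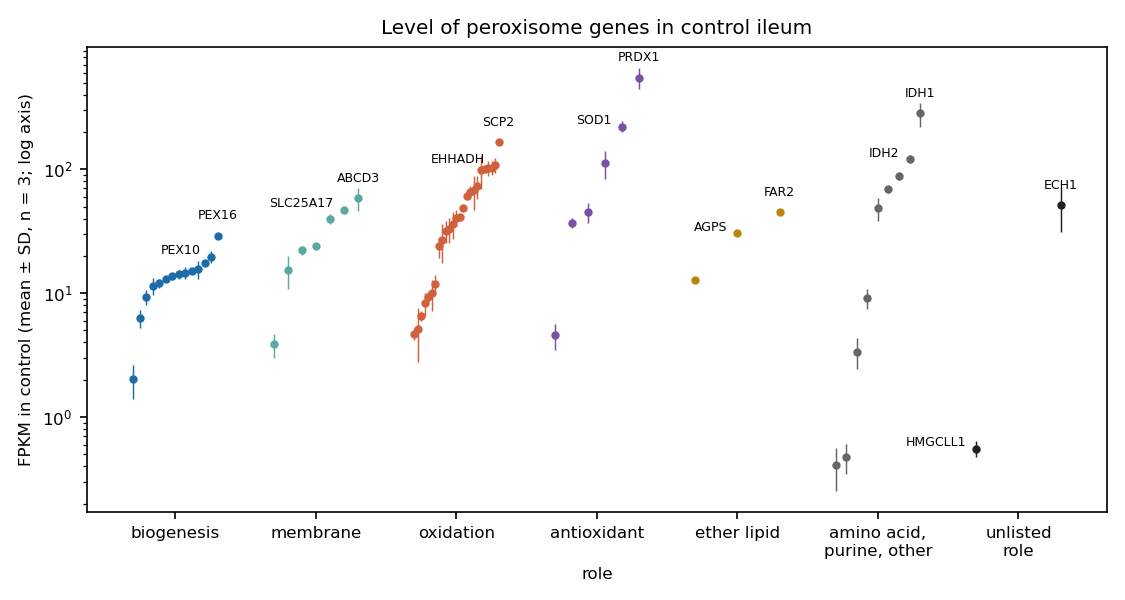
Level of 66 of the 71 peroxisome genes in control ileum, as mean FPKM ± SD of 3 libraries on a log axis, with genes in columns by role and the 2 highest plotted genes of each role named. Biogenesis genes lie between 2.02 and 29.1 FPKM, while the highest oxidation, antioxidant and NADPH-making genes exceed 100 FPKM.

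Biogenesis genes were the least abundant of the larger roles and the most even. Their control means ran from 2.02 FPKM for PEX11A to 29.1 FPKM for PEX16, with a median of 13 FPKM, and 0 of 17 exceeded 50 FPKM. In oxidation 11 of 26 exceeded 50 FPKM, with a median of 40.9 FPKM, and in the antioxidant role 3 of 6 did, with a median of 78.3 FPKM. The median coefficient of variation between control libraries, taken on CPM, was 8.69% in biogenesis, 15.1% in oxidation and 19.6% in the antioxidant role, beside 12.3% over all genes tested. In FOS it was 14.8%, 16% and 16.8%, beside 17.4%.

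Whether peroxisome genes differed between FOS and control was tested with edgeR's quasi-likelihood test over 13807 genes, and all 71 members passed the filter on low counts. With p adjusted over all genes, 0 members were called, where 0.0217% of all genes tested were (3 genes, all higher and no members). At an unadjusted p under 0.05 there were 11 members higher in FOS (15.5%) and 1 lower (1.41%), beside 5.14% and 4.27% of all genes tested (12 members in all, beside 9.42%). DESeq2 called 1 member, SCP2, which was higher, where it called 0.903% of its genes in either direction and 0.647% higher. With the replicate number as a block DESeq2 called 0 members (0.784% of its genes), and limma-voom called 0 (0.00724%). The median log2 fold change was 0.21 over the members and 0.01 over all genes tested, and 60 of 71 members (84.5%) had a positive value, beside 51.1% of all genes. FOS and control libraries did not overlap in 15 members on the higher side (21.1%) and in 3 on the lower (4.23%), beside 8.58% and 7.84% of all genes tested.

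The size of this lean to the higher side differed among libraries. Taken on log2 of CPM with 0.5 added, the members' median deviation from the mean of each gene was -0.121, 0.004 and -0.185 in control 1 to 3. In FOS 1 to 3 that deviation was 0.153, 0.021 and 0.069. Among the same-numbered libraries, the median log2 ratio of FOS to control, on CPM with 0.5 added, was 0.32 for number 1 and 0.23 for number 3, with 58 of 71 members above 0 in both. It was -0.01 for number 2, the libraries without W-linked transcripts, with 35 of 71 members above 0. Over all genes the same 3 medians lay within 0.01 of 0. With edgeR on only the 4 libraries with W-linked transcripts, the median over the members was 0.29, and 63 of 71 were positive. Leaving out FOS 1 lowered the median to 0.12 with 49 of 71 positive. Leaving out control 3 lowered the members at an unadjusted p under 0.05 from 12 to 6 (16.9% to 8.45%). The share of all genes tested at that level fell alongside, from 9.42% to 5.27%.

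**Figure D2:**
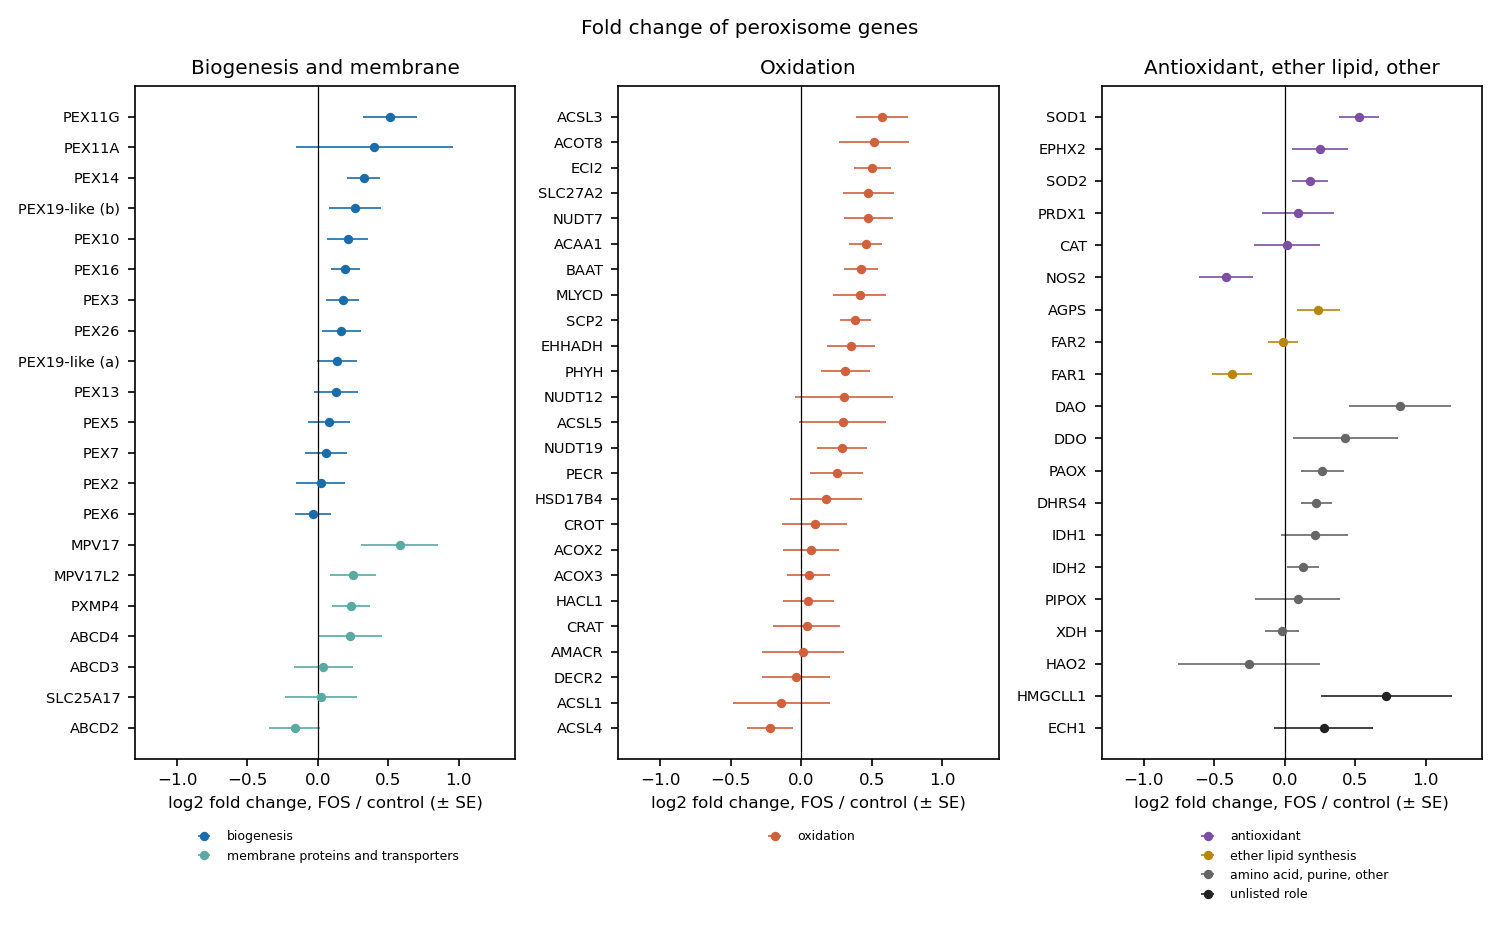
Log2 fold change of FOS over control for 66 of the 71 peroxisome genes, in panels and colours by role. Bars are standard errors derived from the edgeR test on 3 libraries per group. Genes to the right of 0 are higher in FOS, such as ECI2 at 0.50, FAR1 lies to the left at -0.37, and 0 genes pass the adjusted threshold.

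Marker lists of cell types leaned in the same comparison. Of 15 enterocyte markers found, 13 had a positive log2 fold change, 5 of them at an unadjusted p under 0.05 (beside 5.14% of all genes tested), and 1 was lower at that level, FABP6. Their summed level was 20019, 23721 and 18010 CPM across control libraries 1 to 3, against 29354, 21662 and 22395 CPM across FOS libraries 1 to 3. The groups thus overlapped in the sum, with FOS 1 highest and control 3 lowest. Much of the sum came from ANPEP and FABP6, which went opposite ways. ANPEP stood at 6232, 8626 and 7095 CPM in control against 8468, 11734 and 10435 CPM with FOS. FABP6 stood at 5756, 5158 and 4529 CPM in control against 4003, 1079 and 1506 CPM with FOS. All 11 smooth muscle markers found had a negative log2 fold change, 0 of them at an unadjusted p under 0.05. Their summed level was 6457 to 9112 CPM in control against 4604 to 7673 CPM with FOS. Of 10 T and NK cell markers tested, 9 were negative, and 3 were lower at an unadjusted p under 0.05 (30%, beside 4.27% of all genes tested). Their summed level was 1876 to 2218 CPM in control against 1712 to 1988 CPM with FOS. Much of it was GNLY, at 804, 1111 and 1040 CPM in control against 1120, 843 and 849 CPM with FOS. Of 8 fibroblast markers, 7 were negative, and 2 were lower at an unadjusted p under 0.05 (25%, beside the same 4.27%). Their summed level was 4744 to 4954 CPM in control against 3425 to 5179 CPM with FOS. Of 7 B and plasma cell markers, 3 were positive and 0 were at an unadjusted p under 0.05, with 1090 to 1740 CPM in control against 1127 to 1958 CPM with FOS. The part of these differences in the values of the peroxisome genes was not tested.

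Single libraries stood out in the profile of the members. FOS 1 was the highest of the 6 libraries in 35 of 71 members (49.3%), beside 27.2% of all genes tested. Control 3 was the lowest in 26 members (36.6%) and control 1 in 19 (26.8%), beside 16.5% and 13.3% of all genes. Summed over the members, FPKM was 3723, 3838 and 3330 across control libraries 1 to 3, against 4487, 3743 and 3855 across FOS libraries 1 to 3. Control and FOS thus overlapped in the sum, since control 2 lay above FOS 2. With 1 library left out in turn, the log2 fold changes of 27 of the 71 members turned sign at least once, those of another 31 moved by over 1.5 times, and 13 did neither, among them SCP2, ECI2, ACAA1, BAAT, NUDT7, SOD1, PEX14, PEX16, PEX3, MPV17 and DHRS4.

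**Figure D3:**
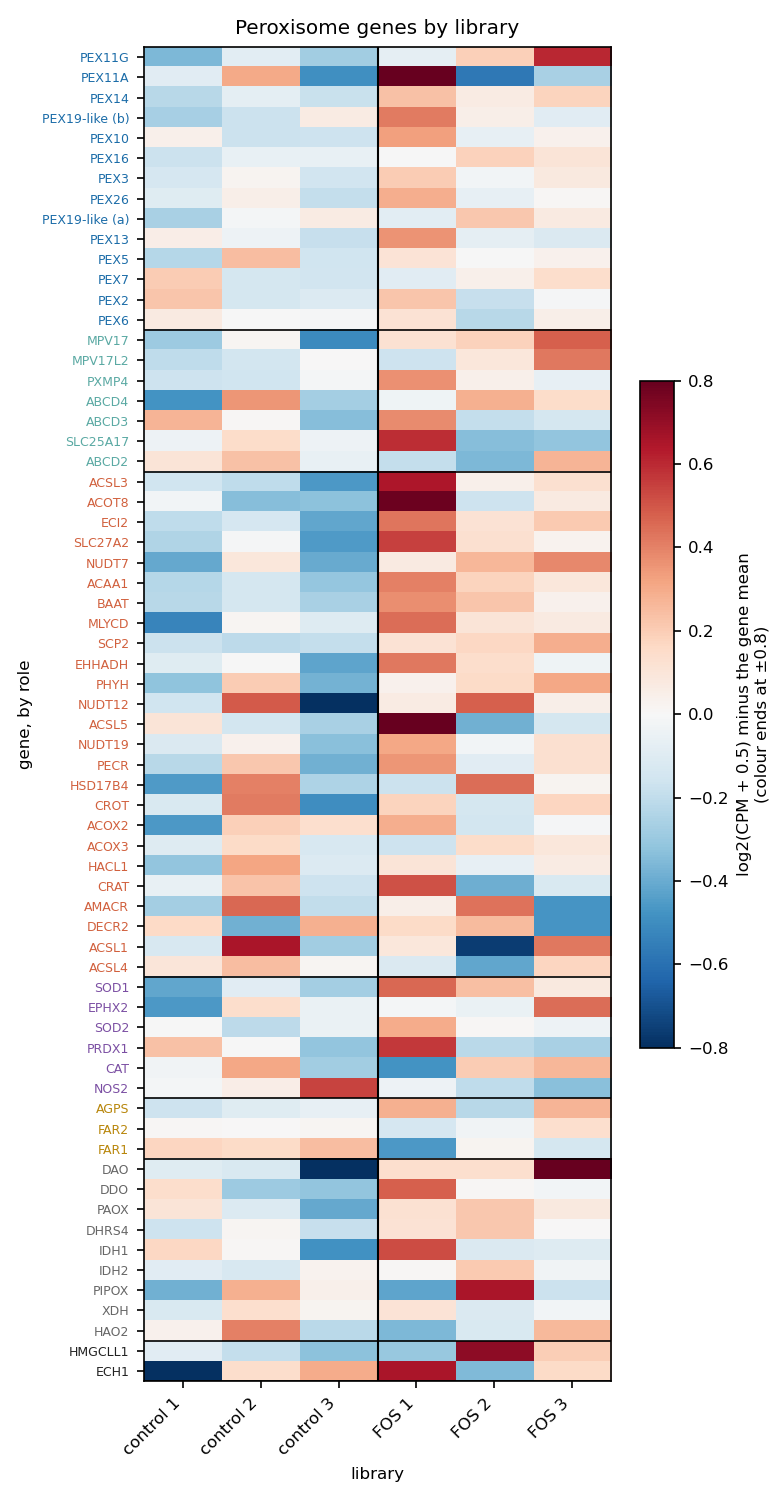
Peroxisome genes by library (66 of the 71), as log2(CPM + 0.5) minus the mean of each gene over 6 libraries, in rows by role and, within a role, by fold change. Over all 71 genes FOS 1 is the highest library in 35 and control 3 the lowest in 26, and HSD17B4 and AMACR are high in control 2 and FOS 2.

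Biogenesis members come first. Of 17, 15 had a positive log2 fold change (88.2%, beside 51.1% of all genes tested) and 2 a negative one, with a median of 0.17. At an unadjusted p under 0.05, 3 were higher (17.6%, beside 5.14% of all genes tested), among them PEX14 and PEX11G. None was lower at that level, beside 4.27%. Without FOS 1 the median was 0.09. PEX10, a RING-finger subunit of the ubiquitin ligase that recycles import receptors, stood at 25 ± 2.17 CPM in control against 28.9 ± 4.3 CPM with FOS, and PEX2, another subunit, at 18.2 ± 2.69 and 18.5 ± 2.74 CPM (SD, n = 3).

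PEX14 (ENSGALG00000002836), the docking protein for loaded import receptors, measured 22.4, 24.8 and 23.1 CPM across control libraries 1 to 3, against 30.9, 27.4 and 29.7 CPM across FOS libraries 1 to 3. Every FOS library lay above every control library, with a log2 fold change of 0.32 (SE 0.12, adjusted p = 0.489 by edgeR). Some counts of PEX14 and of 9 other members (among them ACOT8, ABCD4, NUDT19, SLC27A2, PAOX and both PEX19-like rows) were not whole, so the counting may have split reads there and these values are uncertain. PEX13, which forms the import pore with PEX14, stood at 48.3 ± 4.08 and 52.8 ± 10.2 CPM (SD, n = 3), with groups that overlapped. The receptors that PEX14 docks showed smaller differences. PEX5, which binds the C-terminal targeting signal of most matrix enzymes, measured 39, 54.4 and 41 CPM across control libraries 1 to 3, against 49.4, 45.6 and 46.8 CPM across FOS libraries 1 to 3. Its log2 fold change was 0.08 (SE 0.15, adjusted p = 0.896 by edgeR). PEX7, the receptor for the N-terminal signal carried by few enzymes, measured 29.9, 23.5 and 23.2 CPM across control against 24.4, 26.8 and 28.6 CPM across FOS, with a log2 fold change of 0.06 (SE 0.15, adjusted p = 0.928 by edgeR). For both receptors the difference was smaller than the spread between libraries. PEX6, an ATPase that pulls receptors back out of the membrane, and PEX26, its anchor, showed values of -0.03 (SE 0.13) and 0.17 (SE 0.14) on the log2 fold scale.

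Genes for the insertion of membrane proteins showed small differences. PEX3, the membrane anchor of the chaperone PEX19, measured 30.5, 34 and 30.1 CPM across control libraries 1 to 3, against 38.7, 32.9 and 35.4 CPM across FOS libraries 1 to 3, where FOS 2 alone lay within the control range. Its log2 fold change was 0.18 (SE 0.12, adjusted p = 0.691 by edgeR). PEX16, which brings PEX3 to the membrane, measured 40.3, 43.6 and 43.7 CPM across control against 45.4, 51.8 and 48.9 CPM across FOS, without overlap, a log2 fold change of 0.20 (SE 0.11, adjusted p = 0.62 by edgeR). The table holds a pair of rows annotated as PEX19-like, which may share reads with each other. They had log2 fold changes of 0.14 (SE 0.14, ENSGALG00000029657) and 0.26 (SE 0.18, ENSGALG00000050229).

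PEX11G (ENSGALG00000043756), whose product belongs to a family that elongates peroxisomes before fission, measured 20.9, 25.3 and 22.1 CPM across control libraries 1 to 3, against 25.6, 30.8 and 41.2 CPM across FOS libraries 1 to 3. The lowest FOS library lay just above the highest control library, and the log2 fold change was 0.52 (SE 0.19, adjusted p = 0.501 by edgeR), or 0.32 without FOS 3. PEX11A, of the same family, stood at 6.01 CPM in FOS 1 and at 1.53 to 3.24 CPM in the other 5 libraries. Neither gene passed, and the difference between them was not tested.

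Membrane proteins and transporters had a median log2 fold change of 0.23, with 6 of 7 positive (85.7%, beside 51.1% of all genes tested). At an unadjusted p under 0.05 there were 0, beside 9.42% of all genes tested. ABCD3, the transporter of branched-chain and bile acid precursor acyl-CoA, was the most abundant per length at 58.3 ± 12.3 FPKM in control (SD, n = 3). It measured 281, 234 and 184 CPM across control libraries 1 to 3, against 303, 204 and 211 CPM across FOS libraries 1 to 3, so the groups overlapped, with a log2 fold change of 0.04 (SE 0.21, adjusted p = 0.973 by edgeR). ABCD2, which carries very long-chain acyl-CoA, stood at 47.7 ± 4.85 and 42.5 ± 10.1 CPM (SD, n = 3). SLC25A17, a carrier of cofactors such as coenzyme A, stood at 102 CPM in FOS 1 and at 53.4 to 74.9 CPM in the other 5 libraries, which gave a log2 fold change of 0.02 (SE 0.25) and of -0.35 without FOS 1. PXMP4, an integral membrane protein, stood at 65.5 to 72.7 CPM in control against 94.7, 75.4 and 70 CPM across FOS libraries 1 to 3. MPV17, low in all libraries, measured 3.12, 3.99 and 2.61 CPM across control against 4.32, 4.53 and 5.67 CPM across FOS, without overlap, with a log2 fold change of 0.58 (SE 0.27, adjusted p = 0.566 by edgeR). MPV17L2 and ABCD4 had log2 fold changes of 0.25 (SE 0.16) and 0.23 (SE 0.23). MPV17L2 was 0.09 without FOS 3, and ABCD4 ranged from 0.06 without control 1 to 0.52 without control 2 and was 0.43 in the 4 libraries with W-linked transcripts. Their products are known mainly from mitochondria and lysosomes.

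Oxidation members made up the largest role. Of 26, 23 had a positive log2 fold change (88.5%, beside 51.1% of all genes tested), and the median was 0.29. At an unadjusted p under 0.05, 7 were higher (26.9%, beside 5.14% of all genes tested) and 0 lower, beside 4.27%. The median was 0.18 without control 3, 0.19 without FOS 1, 0.41 without control 2 and 0.46 in the 4 libraries holding W-linked transcripts. Among same-numbered libraries, the median log2 ratio of FOS to control was 0.45 for number 1 and 0.40 for number 3. In both, 23 of 26 members were above 0. For number 2 it was 0.003, with 13 of 26 above 0. The 7 genes at an unadjusted p under 0.05 were ECI2, ACAA1, BAAT, SCP2, ACSL3, NUDT7 and SLC27A2. Among all 26 oxidation members, every FOS library lay above every control library in 7 (26.9%, beside 8.58% of all genes tested). In 0 every FOS library lay below, beside 7.84%. Those without overlap were the genes just named except NUDT7, and MLYCD.

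SCP2 (ENSGALG00000010652), whose longer product is the thiolase for branched-chain and bile acid side chains and whose shorter product carries lipids, stood at 401, 390 and 396 CPM in control 1 to 3. It stood at 489, 507 and 553 CPM in FOS 1 to 3. The control libraries were nearly level, all FOS libraries were higher, and the log2 fold change was 0.38 (SE 0.11, adjusted p = 0.448 by edgeR). DESeq2 called SCP2 higher (adjusted p = 0.0442), and with the replicate number as a block its DESeq2 adjusted p was 0.342. On simulated data DESeq2 made a larger share of false calls than the threshold allows, more so than edgeR. Its log2 fold change lay between 0.34 and 0.43 with any 1 library left out.

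ACAA1 (ENSGALG00000005860), the straight-chain thiolase that closes each round of beta-oxidation, measured 114, 121 and 107 CPM across control libraries 1 to 3, against 176, 151 and 142 CPM across FOS libraries 1 to 3. FOS 1 was the highest library, and the log2 fold change was 0.46 (SE 0.12, adjusted p = 0.436 by edgeR). ECI2 (ENSGALG00000012809), an isomerase that moves double bonds so that unsaturated fatty acids can be oxidised, measured 102, 106 and 87.7 CPM across control against 158, 127 and 135 CPM across FOS, a log2 fold change of 0.50 (SE 0.13, adjusted p = 0.434 by edgeR). The same test without FOS 1 gave 0.41 for ECI2 and 0.37 for ACAA1. BAAT (ENSGALG00000040619), which joins bile acids to taurine or glycine, measured 121, 127 and 118 CPM across control against 182, 164 and 144 CPM across FOS, a log2 fold change of 0.42 (SE 0.12, adjusted p = 0.443 by edgeR). None of these genes passed with DESeq2 either, with adjusted p of 0.0865 for ECI2, 0.0991 for ACAA1 and 0.148 for BAAT.

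**Figure D4:**
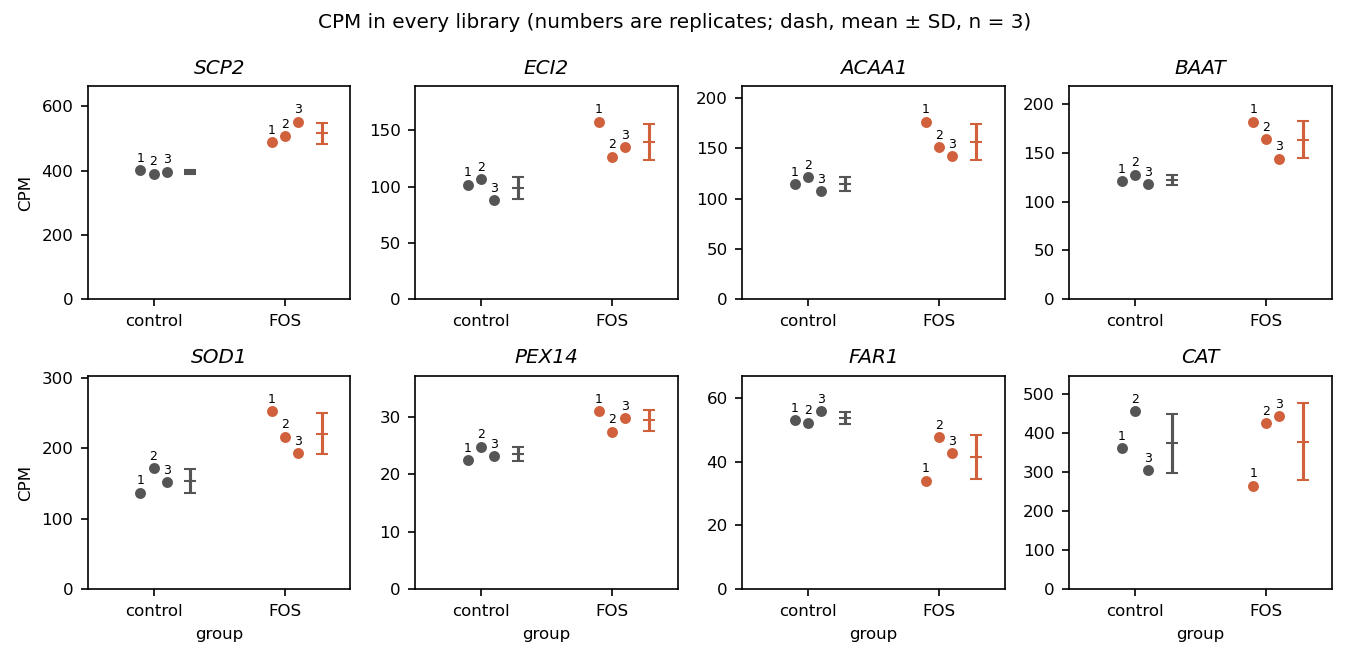
CPM of 8 peroxisome genes in every library, with the replicate number at each point and the mean ± SD of 3 libraries per group beside the points. All FOS libraries lie above all control libraries for SCP2, ECI2, ACAA1, BAAT, SOD1 and PEX14, below them for FAR1, and for CAT 2 FOS libraries lie among the control libraries and FOS 1 below them.

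Other enzymes of the beta-oxidation cycle were less even. EHHADH measured 370, 396 and 295 CPM across control libraries 1 to 3, against 530, 436 and 387 CPM across FOS, with FOS 3 within the control range and a log2 fold change of 0.35 (SE 0.17, adjusted p = 0.573 by edgeR), or 0.22 without FOS 1. ACOX2 and ACOX3, oxidases of branched chains and bile acid precursors, had log2 fold changes of 0.07 (SE 0.20) and 0.05 (SE 0.15). HSD17B4, the second bifunctional enzyme, measured 132, 240 and 153 CPM across control against 161, 247 and 184 CPM across FOS, where the libraries numbered 2 were the highest of each group. Its log2 fold change was 0.17 (SE 0.26, adjusted p = 0.858 by edgeR).

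Enzymes that load and unload acyl chains followed. ACSL3, a long-chain acyl-CoA synthetase, measured 33.1, 32 and 26.8 CPM across control libraries 1 to 3, against 58.2, 38.1 and 40.5 CPM across FOS libraries 1 to 3, a log2 fold change of 0.57 (SE 0.19, adjusted p = 0.479 by edgeR), or 0.36 without FOS 1. The row named SLC27A2 through its gene number, which the table describes as member 5 of the same family, measured 285, 334 and 245 CPM across control against 491, 367 and 344 CPM across FOS, a log2 fold change of 0.48 (SE 0.18, adjusted p = 0.503 by edgeR), or 0.31 without FOS 1. In both genes FOS 1 was the highest library. Among the other synthetases ACSL5 stood at 511 CPM in FOS 1 and at 220 to 309 CPM in the other 5 libraries. ACSL1 and ACSL4 had log2 fold changes of -0.14 (SE 0.34) and -0.22 (SE 0.16). The direction of ACSL1 and ACSL5 rested on single libraries: ACSL1 was 0.20 without control 2, 0.13 without FOS 2 and 0.47 in the 4 libraries with W-linked transcripts, and ACSL5 went from 0.29 to -0.16 without FOS 1. ACSL4 was -0.08 without FOS 2 and -0.02 in those 4 libraries. NUDT7, a hydrolase of coenzyme A and its esters, measured 26.9, 38.1 and 26.9 CPM across control against 37.6, 43.2 and 46.8 CPM across FOS, with a log2 fold change of 0.47 (SE 0.17, adjusted p = 0.496 by edgeR) and FOS 1 just below control 2. CROT and CRAT, which pass shortened chains to carnitine, had log2 fold changes of 0.10 (SE 0.23) and 0.04 (SE 0.24), or 0.47 and 0.33 in the 4 libraries with W-linked transcripts. ACOT8, a thioesterase, had one of 0.52 (SE 0.25), or 0.19 without FOS 1, with FOS 1 at 113 CPM and the other 5 libraries at 51.5 to 68.9 CPM. MLYCD, which breaks down malonyl-CoA, measured 16.8, 24.8 and 22.8 CPM across control against 33.5, 26.4 and 25.8 CPM across FOS, without overlap, a log2 fold change of 0.41 (SE 0.19, adjusted p = 0.552 by edgeR), or 0.27 without control 1.

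PHYH, which starts the alpha-oxidation of phytanic acid, measured 60.8, 87.5 and 58.4 CPM across control libraries 1 to 3, against 77.8, 84.5 and 94.4 CPM across FOS libraries 1 to 3. Control 2 lay between FOS 2 and FOS 3, and the log2 fold change was 0.31 (SE 0.18, adjusted p = 0.63 by edgeR), or 0.53 in the 4 libraries with W-linked transcripts. HACL1, the lyase of the next step, and AMACR, the racemase of branched acyl-CoA, had log2 fold changes of 0.05 (SE 0.18) and 0.01 (SE 0.29), or 0.30 and 0.04 in those 4 libraries. DECR2 and PECR, reductases of unsaturated acyl-CoA, had -0.04 (SE 0.24) and 0.25 (SE 0.19), or -0.36 and 0.55 in those 4 libraries. ECH1, an isomerase of dienoyl-CoA, was on no role list and measured 45.1, 93.1 and 104 CPM across control against 133, 66 and 94 CPM across FOS. Its libraries overlapped widely, and its log2 fold change was 0.28 (SE 0.35, adjusted p = 0.839 by edgeR), -0.01 without control 1 and 0.60 in the 4 libraries with W-linked transcripts.

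Antioxidant members were uneven. The role is a list of symbols that also holds EPHX2, an epoxide hydrolase, and NOS2, a nitric oxide synthase. Of 6, 5 had a positive log2 fold change (83.3%, beside 51.1% of all genes tested), and the median was 0.14. NOS2 was the 1 negative member, while CAT, SOD1, SOD2, PRDX1 and EPHX2 were positive. SOD1 alone was at an unadjusted p under 0.05 (16.7% higher, beside 5.14% of all genes tested). The median was 0.08 without control 3 and 0.23 without FOS 2. SOD1 (ENSGALG00000015844) measured 137, 172 and 152 CPM across control libraries 1 to 3, against 253, 217 and 194 CPM across FOS libraries 1 to 3. All FOS libraries were higher, with FOS 1 the highest, and the log2 fold change was 0.53 (SE 0.14, adjusted p = 0.443 by edgeR, DESeq2 adjusted p = 0.0985). SOD2, the manganese enzyme of mitochondria, measured 106, 91.4 and 102 CPM across control against 130, 106 and 103 CPM across FOS, with overlap and a log2 fold change of 0.18 (SE 0.13, adjusted p = 0.706 by edgeR).

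CAT (ENSGALG00000030187), the marker enzyme of the peroxisomal matrix, measured 362, 457 and 305 CPM across control libraries 1 to 3, against 265, 426 and 445 CPM across FOS libraries 1 to 3. The groups overlapped, FOS 1 was the lowest library and lay below every control library, and the log2 fold change was 0.02 (SE 0.23, adjusted p = 0.989 by edgeR), or 0.22 without FOS 1. PRDX1 measured 623, 530 and 425 CPM across control against 785, 457 and 442 CPM across FOS, the opposite order for FOS 1, which was here the highest library. Its log2 fold change was 0.09 (SE 0.26, adjusted p = 0.933 by edgeR), and -0.22 without FOS 1. EPHX2, an epoxide hydrolase, measured 67, 102 and 89 CPM across control against 91.5, 89.2 and 126 CPM across FOS. NOS2, the inducible nitric oxide synthase, measured 16.8, 17.6 and 24.8 CPM across control against 16.4, 14.6 and 13.3 CPM across FOS, with all FOS libraries lower, a log2 fold change of -0.42 (SE 0.19, adjusted p = 0.557 by edgeR), or -0.22 without control 3.

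Ether lipid synthesis was represented by 3 members. FAR1 (ENSGALG00000005353), the fatty acyl-CoA reductase that supplies the fatty alcohol for plasmalogens, measured 52.9, 52.3 and 55.8 CPM across control libraries 1 to 3, against 34, 47.6 and 42.6 CPM across FOS libraries 1 to 3. It was the 1 member lower at an unadjusted p under 0.05, with no overlap, FOS 1 the lowest and a log2 fold change of -0.37 (SE 0.14, adjusted p = 0.503 by edgeR), or -0.25 without FOS 1. FAR2, a reductase of the same kind, stood at 107 to 108 CPM in control against 97.1, 105 and 118 CPM with FOS, a log2 fold change of -0.01 (SE 0.11). AGPS, which exchanges the acyl chain for the fatty alcohol, measured 76.1, 80.1 and 81.8 CPM across control against 104, 73.2 and 103 CPM across FOS, where FOS 2 lay below control, with a log2 fold change of 0.24 (SE 0.15, adjusted p = 0.669 by edgeR), or 0.40 without FOS 2 and 0.39 in the 4 libraries with W-linked transcripts.

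Of 10 members for amino acid, purine and other metabolism, 8 had a positive log2 fold change (80%, beside 51.1% of all genes tested). At an unadjusted p under 0.05 there were 0, beside 9.42% of all genes tested. IDH1 measured 722, 649 and 461 CPM across control libraries 1 to 3, against 926, 594 and 601 CPM across FOS libraries 1 to 3, a log2 fold change of 0.21 (SE 0.24, adjusted p = 0.818 by edgeR), or -0.03 without FOS 1. IDH2 measured 204, 198 and 221 CPM across control against 218, 250 and 213 CPM across FOS. XDH (ENSGALG00000008701), the last enzyme of uric acid formation in birds, stood at 371 ± 33 and 366 ± 29 CPM (SD, n = 3). The symbol XDH also occurs outside the rows with the pathway label, and its values there are not given. DAO, the D-amino acid oxidase, was low, at 3.55, 3.47 and 1.87 CPM in control against 4.25, 4.25 and 7.13 CPM with FOS. All FOS libraries were above control, with a log2 fold change of 0.82 (SE 0.36, adjusted p = 0.542 by edgeR), or 0.53 without FOS 3. DDO, the D-aspartate oxidase, stood at 1.15 ± 0.307 and 1.55 ± 0.414 CPM (SD, n = 3). DHRS4, a reductase of retinal and other carbonyls, stood at 96.3 ± 7.53 and 112 ± 8.42 CPM, and PAOX, the polyamine oxidase, at 27.3 ± 4.88 and 32.8 ± 1.61 CPM (SD, n = 3), with edgeR adjusted p of 0.592 and 0.634. HMGCLL1, on no role list, stood at 0.586 to 0.781 CPM in control against 0.608 to 1.74 CPM with FOS.

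The split by W-linked transcripts separated members about as often as it separated other genes. In 6 members both libraries without these transcripts lay above the other 4 (8.45%, beside 6.16% of all genes tested), and in 2 below (2.82%, beside 4.89%). The 6 were HSD17B4, AMACR, NUDT12, PIPOX, ABCD4 and ACOX3. AMACR stood at 24 and 23.6 CPM in control 2 and FOS 2 and at 12.4 to 17.9 CPM in the other 4 libraries, and NUDT12 at 21.5 and 21.3 CPM against 7.78 to 15.9 CPM. The ratio of the mean without to the mean with these transcripts was 1.55 for HSD17B4, 1.60 for AMACR and 1.62 for NUDT12. As background, HSD17B4 and AMACR lie on the Z chromosome in chicken, of which males carry a pair. Positions of the other members named here are not given, and whether position bears on these ratios was not tested. PIPOX, which oxidises pipecolic acid and sarcosine, had a ratio of 1.63, ABCD4 1.38 and ACOX3 1.17.

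Genes that act around peroxisomes but are not members gave 0 edgeR calls, beside 0.0217% of all genes tested, so lists this short would seldom hold one. Of 11 regulators listed, 7 were tested and 0 were at an unadjusted p under 0.05, beside 9.42% of all genes tested, with a median log2 fold change of 0.06. PPARD, a nuclear receptor for fatty acids, stood at 75.4 CPM in control against 93.6 CPM with FOS, a log2 fold change of 0.31 (SE 0.15, adjusted p = 0.569 by edgeR). PPARA, the receptor known for inducing peroxisomal oxidation in rodent liver, stood at 64.1 and 49.7 CPM, a log2 fold change of -0.37 (SE 0.20, adjusted p = 0.624 by edgeR). The 11 members that also carry the PPAR signalling label had a median of 0.29, with 9 positive, and the other 60 members had a median of 0.19, with 51 positive. Of 9 genes tested for fission and contact sites, 8 were positive (88.9%, beside 51.1% of all genes tested). At an unadjusted p under 0.05 there were 0, beside 9.42%. In this list FIS1, a fission factor, stood at 2.58 and 3.78 CPM (log2 fold change 0.55, SE 0.25) and VAPA, a tether of the endoplasmic reticulum, at 195 and 242 CPM (log2 fold change 0.31, SE 0.13).

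Of 8 genes for matrix proteolysis and turnover, 1 was at an unadjusted p under 0.05, beside 9.42% of all genes tested. TYSND1, the protease that trims matrix enzymes such as thiolases, stood at 25.9 CPM in control against 35.4 CPM with FOS, with groups that did not overlap, a log2 fold change of 0.45 (SE 0.15, adjusted p = 0.479 by edgeR). LONP2, the other matrix protease, had a log2 fold change of 0.03 (SE 0.17), and SQSTM1, a receptor of autophagy, one of 0.35 (SE 0.18). Further genes linked to oxidation and detoxification numbered 9, with GSTK1, which carries the pathway label, among them. Of these, 4 were higher at an unadjusted p under 0.05, GSTK1 included, and 0 lower, beside 5.14% and 4.27% of all genes tested, with a median of 0.37. Among them MGST1, a membrane-bound glutathione transferase, measured 158, 162 and 160 CPM across control libraries 1 to 3, against 320, 260 and 239 CPM across FOS libraries 1 to 3, a log2 fold change of 0.77 (SE 0.13, adjusted p = 0.388 by edgeR). DESeq2 called MGST1 higher (adjusted p = 0.000409), while edgeR did not. ACOT12, a cytosolic acetyl-CoA thioesterase, stood at 2.87 and 5.71 CPM (log2 fold change 0.99, SE 0.30). The labelled rows left out for another pathway had log2 fold changes of 0.37 (SE 0.13) for GSTK1, 0.45 (SE 0.18) for PMVK and 0.13 (SE 0.20) for MVK. By contrast, 23 genes with a peroxisomal GO term but without the pathway label had a median of 0.03, with 12 positive and 11 negative.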

How the data were processed

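Per the labels, total RNA of ileum was made into 6 libraries with a kit named for small RNA. Tools listed without roles, per the submitters' processing notes, are StringTie 1.3.1, HISAT2, Bowtie2, fastp 0.18.0 and DESeq2. The genome build is not given in the sources used here. The deposited table gives estimated counts, of which 8.06% were not whole (tolerance 1e-09), and the authors' FPKM. Its 12 value columns for 6 other libraries were not used.

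Estimated counts were rounded and tested with edgeR 4.0.16 (TMM scaling, filterByExpr, quasi-likelihood test, Benjamini-Hochberg adjustment, threshold 0.05) in R 4.3.3. The procedure was also run on simulated data. There edgeR missed nearly all of the smallest changes set. Both edgeR and, more so, DESeq2 made a larger share of false calls than the threshold allows. The test returns no standard error, so each SE was the absolute log2 fold change over the square root of the test's F statistic. The biological coefficient of variation was 24.6%. CPM used TMM library sizes. DESeq2 1.42.0, limma 3.58.1 (voom, or log2 of FPKM plus 1 or 0.1), other scalings and filters, a replicate block, the W-linked split and leaving out each library were alternatives. The titles supply each library's replicate number. Between control and FOS libraries of like number, deviations correlated at 0.24 (number 1), 0.388 (number 2) and 0.198 (number 3). Pairs of unlike number gave -0.309 to 0.0652. Deviations were taken from the group means, so positive values for like numbers force negative ones among unlike numbers. Both libraries numbered 2 also lack W-linked transcripts, so for them a pairing cannot be told from that split. Whether the numbers pair the libraries was not tested. They served as a block in alternatives only, and the main edgeR test was unpaired.

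Members and lists were chosen with earlier results of these data known. Per role, the 4 members with the smallest p, the 2 with the highest mean FPKM, a fixed list and members called by edgeR or DESeq2 were to be named, and of each related list the 2 with the smallest p. Other genes named were chosen after their values were seen. RefSeq's gene table for GRCg7b named 3 members, and 1 has no symbol. PEX19, PRDX5 and GNPAT under those symbols were not analysed here. Results for some members are not reported here, and figures leave these members out.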

Additional observations from a re-analysis of the deposited data

How the results depend on the processing

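No alternative run other than DESeq2 called a member, and DESeq2 called 1 (SCP2). On simulated data edgeR missed nearly all of the smallest changes set, which were larger than the members' median log2 fold change of 0.21. A count of 0 therefore cannot show that no member differed. Genes called over the whole table numbered 3 with edgeR, 134 with DESeq2, 1 with limma-voom, 114 with DESeq2 and the replicate block, and 0 to 4 with 1 library left out. With the replicate block edgeR called 3 genes and 0 members, and the members' median log2 fold change was 0.20. There 13 members (18.3%) were at an unadjusted p under 0.05, beside 9.08% of all genes tested. Among the members the block changed no call other than that of SCP2 with DESeq2. Members at an unadjusted p under 0.05 numbered 6 to 17 with 1 library left out (8.45% to 23.9%). The share of all genes tested in those runs was 5.27% to 10.8%. The antioxidant median was 0.0454 on log2(FPKM + 1), with and without a filter, 0.0466 on log2(FPKM + 0.1), and 0.0801 to 0.232 with 1 library left out. Restricted to the 4 libraries holding W-linked transcripts, the biogenesis median was 0.25 and the oxidation median 0.46. On log2(FPKM + 1) the median of all genes was -0.06 and that of the members 0.12, with 50 of 71 positive. The causes were not tested.

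Of 740 alternative values of the 39 members named by rule, 697 kept direction and side of the threshold, 42 turned sign and 1 newly passed, and 29 members turned sign in none. On log2(FPKM + 1), with and without a filter, and on log2(FPKM + 0.1), ABCD3 stood at -0.0341 and -0.0346, CAT at -0.026 and -0.0265, PEX7 at -0.0103 and -0.0111, PRDX1 at -0.012 and -0.0121 and SLC25A17 at -0.109 and -0.113. CAT was -0.00594 with limma-voom, and with the replicate block -0.00156 in edgeR and -0.00118 in DESeq2. SLC25A17 was -0.0112 with upper-quartile scaling, -0.045 with limma-voom, and with the block -0.0433 in edgeR and -0.0437 in DESeq2. PEX7 was -0.00635 in the 4 libraries with W-linked transcripts. With 1 library left out, ABCD3 ranged from -0.162 to 0.195, CAT from -0.112 to 0.222, ECH1 from -0.0117 to 0.501, FAR2 from -0.0819 to 0.0533, HSD17B4 from -0.0126 to 0.471, IDH1 from -0.0262 to 0.35, PEX5 from -0.0122 to 0.242, PEX7 from -0.00734 to 0.185, PRDX1 from -0.222 to 0.248 and SLC25A17 from -0.348 to 0.194. HAO2, HMGCLL1 and DDO, with 5 to 30 counts per library, are limited by depth.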
